A study of Mus musculus with 6 samples.

Results

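The interleukin-6 family of cytokines was described here in NIH3T3, a mouse embryonic fibroblast line, through 10 genes taken by symbol from a deposited table of 20475 genes. The genes were the ligand genes Il6, Lif, Il11 and Clcf1, the receptor genes Il6st, Lifr, Osmr and Il6ra, and the signalling genes Socs3 and Stat3. All 10 symbols were found, and all 10 passed the filter on low values. RNA-seq had been run on 6 libraries in 3 groups of 2. Cells of the control group received phosphate-buffered saline (PBS). Those of the other groups received extracellular vesicles (EVs), membrane-bound particles shed by cells, taken either from the non-tumorigenic human breast epithelial line MCF10A or from the human triple-negative breast cancer line MDA-MB-231. All cells were at passage 5, were grown in medium with 10% fetal bovine serum and gave RNA 48 h after treatment. No label states that the 2 libraries of a group were separate cultures, and the p-values therefore measure only the spread between these libraries, which may be technical.

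Cytokines of this family share a signal-transducing receptor chain, encoded by Il6st. Interleukin-6 first binds its own receptor chain, encoded by Il6ra, whereas leukaemia inhibitory factor, encoded by Lif, brings the Il6st product together with the product of Lifr. Oncostatin M signals in the mouse mainly through the chain encoded by Osmr. The assembled receptors activate JAK kinases, which phosphorylate STAT3, and STAT3 induces Socs3, whose product inhibits the same receptors. Fibroblasts are a well-known source of interleukin-6 and leukaemia inhibitory factor in inflamed and tumour tissue.

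Promoter sequences are shown for Il6, Lif, Il11 and Socs3, the members in which a motif of an inducible factor was found. They are the 250 bases before the annotated start, from RefSeq on build GRCm38.p6, written 5′ to 3′ on the strand of the gene, with motif matches in capitals. They lie at chr5:30012864-30013113 (plus strand) for Il6, chr11:4257318-4257567 (plus strand) for Lif, chr7:4778142-4778391 (minus strand, one of 2 entries) for Il11 and chr11:117969367-117969616 (minus strand) for Socs3.
Il6: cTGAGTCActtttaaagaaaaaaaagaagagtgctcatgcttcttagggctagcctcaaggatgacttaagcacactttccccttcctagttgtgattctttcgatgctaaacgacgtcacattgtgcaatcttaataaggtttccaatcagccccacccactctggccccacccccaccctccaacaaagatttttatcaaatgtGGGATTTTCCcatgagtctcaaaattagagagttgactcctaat
Lif: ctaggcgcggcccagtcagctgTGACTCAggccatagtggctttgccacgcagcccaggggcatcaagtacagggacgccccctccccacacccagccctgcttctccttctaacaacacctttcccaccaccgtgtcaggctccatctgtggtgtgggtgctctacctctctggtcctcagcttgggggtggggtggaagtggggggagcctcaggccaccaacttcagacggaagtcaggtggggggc
Il11: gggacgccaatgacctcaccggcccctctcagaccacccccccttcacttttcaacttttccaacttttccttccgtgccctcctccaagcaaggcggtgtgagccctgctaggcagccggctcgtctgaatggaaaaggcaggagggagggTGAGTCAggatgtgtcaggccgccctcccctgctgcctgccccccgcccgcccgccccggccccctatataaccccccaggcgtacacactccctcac
Socs3: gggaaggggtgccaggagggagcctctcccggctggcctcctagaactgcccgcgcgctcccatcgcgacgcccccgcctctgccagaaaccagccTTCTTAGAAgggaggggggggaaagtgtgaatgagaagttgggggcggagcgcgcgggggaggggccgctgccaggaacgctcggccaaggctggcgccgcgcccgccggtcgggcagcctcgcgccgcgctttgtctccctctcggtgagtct
Of the 10 members, 9 had a promoter entry in that table, with 11 entries in all, and Clcf1 had none. Motifs of 5 kinds were searched on both strands: TGANTCA for AP-1, GGG followed by any 2 bases and TTTCC for NF-kB, TTCNNNGAA for STAT factors, TGACGTCA for the cyclic AMP response element and TATAAA. The AP-1 letters occurred in Il6 (TGAGTCA, bases 249 to 243 before the start), Lif (TGACTCA, bases 228 to 222) and the entry of Il11 shown (TGAGTCA, bases 98 to 92). Of 32817 RefSeq promoter windows of the same length, 6.75% held an AP-1 match. The NF-kB letters occurred in Il6 alone of these members (GGGATTTTCC, bases 44 to 35), against 1.41% of all windows, and the STAT letters in Socs3 alone (TTCTTAGAA, bases 154 to 146), against 7.01%. No member's window held the cyclic AMP element, found in 1.55% of all windows, or TATAAA, found in 12.4%. No matches overlapped, and a match describes letters, not a bound site.

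The libraries held 22451173 to 29315530 gene reads, and a member had 129 (Il11) to 33254 (Lif) whole reads in a library. All 12 fibroblast markers, among them Col1a1, Vim and Pdgfra, had reads, and their sum was 480800 to 481600 normalised reads with PBS, 410100 to 422900 after EVs of MCF10A and 397200 to 406400 after those of MDA-MB-231. The sums of 10 epithelial markers were 64.3 to 73.0, 58.4 to 60.1 and 55.9 to 63.8 in the same order, with Epcam, Krt5, Krt18 and Esrp1 at 0. Cdh1, which encodes E-cadherin, had 0 reads in both PBS libraries, 2 and 3 whole reads after EVs of MCF10A and 4 and 2 after those of MDA-MB-231, and limma called it higher after both (adjusted p = 0.0397 and 0.0177), whereas edgeR, which tested 2 of the 10 markers, and DESeq2 called 0 of them higher. Of 10 macrophage and leukocyte markers 8 were in the table; Emr1 and Cd3e were at 0, Ptprc had 1 read in all 6 libraries together, and the sums of the 8 were 91.3 to 107, 92.0 to 101 and 51.2 to 54.8, most of it Csf1r. The sums of 6 endothelial markers were 354 to 362, 291 to 339 and 149.7 to 188, most of it Cdh5. The fibroblast sum after both EVs, and Csf1r and Cdh5 after MDA-MB-231 EVs, thus moved in the direction of the ligand genes. Single fibroblast markers moved both ways. After MDA-MB-231 EVs limma called 7 lower and Col3a1 higher, beside 16.9% and 17.9% of all genes. After MCF10A EVs it called 8 lower and Col3a1 higher, beside 14.6% and 17.1%. Between the EV groups 5 were lower and Col1a2, Pdgfra and Pdgfrb higher after MDA-MB-231 EVs, beside 10.1% and 6.84%. The part of these markers in the results was not tested.

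The comparisons with PBS ask which fibroblast transcripts differ after vesicles of each line, and the comparison between the EV groups asks whether the source of the vesicles matters. After both kinds of EV the 4 ligand genes fell, and Il6, Lif and Il11 were lower after MDA-MB-231 than after MCF10A EVs. Limma, edgeR and DESeq2 called none of the 4 receptor genes lower in any comparison, and 0 were lower at an unadjusted p under 0.05. Among all genes limma called 16.9% lower after MDA-MB-231 EVs, 14.6% after MCF10A EVs and 10.1% between the EV groups. At those shares 0 of 4 does not set the receptor genes apart. Il6st rose after MDA-MB-231 EVs. Socs3 and Stat3 fell after both, and Socs3 was lower after MDA-MB-231 than after MCF10A EVs. In bulk RNA, fewer expressing cells and less RNA per cell cannot be told apart. A gene is said to rise or fall where limma, fitted across 15025 genes on log2 of the normalised read value plus 1, gave a Benjamini-Hochberg adjusted p under 0.05.

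For MDA-MB-231 EVs against PBS, 7 members were called, 6 lower and 1 higher, where 34.8% of all genes were called, 16.9% lower and 17.9% higher. After MCF10A EVs 6 were called, all lower, where 31.7% of all genes were called, 14.6% lower and 17.1% higher. Between the EV groups 6 were called, 4 lower and 2 higher after MDA-MB-231 EVs, where 16.9% of all genes were called, 10.1% lower and 6.84% higher. A call with a fall of at least 2-fold was made for 3 members after MDA-MB-231 EVs, 1 after MCF10A EVs and 1 between the EV groups, against 1.61%, 1.06% and 0.479% of all genes. Libraries of the groups did not overlap for 10, 6 and 9 members in the 3 comparisons, beside 65.9%, 64.2% and 56% of all genes. With edgeR 9, 6 and 7 members were called, beside 45%, 41.8% and 24.2% of 12352 genes. The median log2 change of the 10 was -0.273, -0.188 and -0.115, and that of all tested genes 0.01, 0 and -0.001. Both comparisons with PBS use the same PBS libraries.

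**Figure D1:**
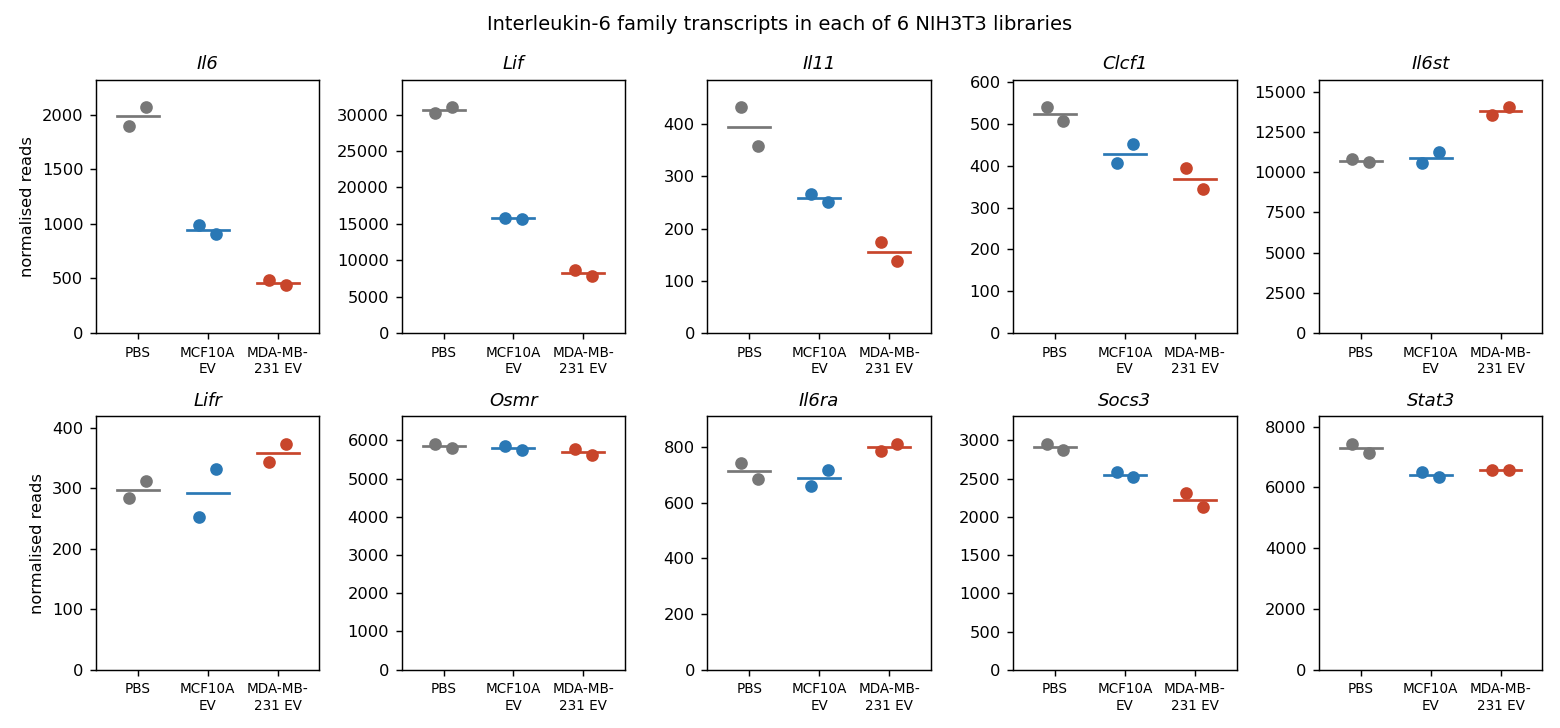
Normalised reads (y axis, from 0) of each of the 10 genes in the 2 libraries of each group (x axis); each point is a library and each line a group mean. Il6, Lif, Il11, Clcf1 and Socs3 step down from PBS to MCF10A EV to MDA-MB-231 EV with no overlap of libraries, and Il6st is highest after MDA-MB-231 EVs at 13589.9 and 14070.5.

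Il6, on chromosome 5, encodes interleukin-6. Its level was 1901 and 2072 normalised reads in the PBS libraries, 985 and 905 after EVs of MCF10A and 482 and 441 after those of MDA-MB-231. The 3 groups did not overlap, and the MDA-MB-231 EV libraries were the lowest. Il6 fell by 76.7% after MDA-MB-231 EVs (log2 change -2.10, SE 0.06, limma adjusted p = 2.82e-12), number 31 from the lowest in the ranking of all 15025 genes by change. After MCF10A EVs it fell by 52.4% (log2 change -1.07, SE 0.06, limma adjusted p = 1.40e-08). The EV groups differed by -1.03 on the log2 scale (95% confidence interval -1.17 to -0.90, limma adjusted p = 2.53e-08).

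Lif, on chromosome 11, encodes leukaemia inhibitory factor. It had 30195 and 31069.8 normalised reads in the PBS libraries, 15862 and 15613 after EVs of MCF10A and 8603 and 7781 after those of MDA-MB-231. The groups were again separate, with the MCF10A EV libraries in between. Lif fell by 73.3% after MDA-MB-231 EVs (log2 change -1.90, SE 0.04, limma adjusted p = 3.58e-14), and after MCF10A EVs it fell by 48.6% (log2 change -0.96, SE 0.04, limma adjusted p = 2.26e-10). The difference between the EV groups was -0.94 (limma adjusted p = 4.21e-10).

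Summed over the 4 ligand genes, the libraries held 33070 and 34006 normalised reads with PBS, 17522 and 17220 after EVs of MCF10A and 9653 and 8703 after those of MDA-MB-231. Lif made up 91.3% and 91.4% of that sum with PBS, 90.5% and 90.7% after EVs of MCF10A and 89.1% and 89.4% after those of MDA-MB-231. Il6 made up 5.75% and 6.09%, 5.62% and 5.25%, and 5% and 5.06%. Lif thus supplied most of the ligand reads in every library. These shares are of reads and are not corrected for exon length, which was 4350 bases for Lif and 2428 for Il6.

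Il11, on chromosome 7, encodes interleukin-11. It stood at 433 and 358 normalised reads in the PBS libraries, 266 and 251 after EVs of MCF10A and 174 and 138 after those of MDA-MB-231. In normalised reads, though not on the log2 scale, the PBS libraries were further apart than those of the other groups. No groups overlapped. Il11 fell by 60.5% after MDA-MB-231 EVs (log2 change -1.34, SE 0.12, limma adjusted p = 6.10e-07), and after MCF10A EVs it fell by 34.2% (log2 change -0.60, SE 0.12, limma adjusted p = 0.00153). The EV groups differed by -0.74 (SE 0.12, limma adjusted p = 6.83e-04). Limma without trend lost the MCF10A EV call (adjusted p = 0.0797) and that between the EV groups (adjusted p = 0.107).

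Clcf1, on chromosome 19, encodes cardiotrophin-like cytokine factor 1, a ligand of the family that acts on neurons and B cells. Its level was 541 and 507 normalised reads in the PBS libraries, 408 and 451 after EVs of MCF10A and 394 and 344 after those of MDA-MB-231. Both EV groups lay below PBS, and the nearest libraries of the EV groups were close. Clcf1 fell by 29.7% after MDA-MB-231 EVs (log2 change -0.51, SE 0.08, limma adjusted p = 2.21e-04), and after MCF10A EVs it fell by 18.1% (log2 change -0.29, limma adjusted p = 0.0173). The MCF10A EV call was lost without PBS replicate 1 (-0.24, limma adjusted p = 0.143), without MCF10A EV replicate 1 (-0.21, adjusted p = 0.163), in DESeq2 (adjusted p = 0.0545) and in limma without trend (0.131). The EV groups differed by -0.22 (95% confidence interval -0.40 to -0.04, limma adjusted p = 0.0939), which was not called except with a filter of 5 CPM (adjusted p = 0.0487) or without MDA-MB-231 EV replicate 1 (-0.32, adjusted p = 0.0366). Another protein-coding gene shares 311 exon bases with Clcf1 on the same strand in the GENCODE annotation, so reads there are ambiguous.

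Of 9 other ligand genes of the family, 5 were tested. Limma called 0 of them in each comparison, with 1 lower after MDA-MB-231 EVs at an unadjusted p under 0.05. EdgeR and DESeq2 also called 0. Among all genes limma called 34.8% after MDA-MB-231 EVs, 31.7% after MCF10A EVs and 16.9% between the EV groups. Ctf1, a cardiotrophin gene, was at 37.3 ± 5.37 with PBS, 52.0 ± 13.8 with vesicles of MCF10A and 35.3 ± 3.15 with those of MDA-MB-231 (SD, n = 2 each, normalised reads). Cntf, the ciliary neurotrophic factor gene, was at 36.6 ± 1.07 with PBS, 40.1 ± 4.81 with vesicles of MCF10A and 40.6 ± 10.0 with those of MDA-MB-231. Osm, Lep and Il31 had 0 reads in all 6 libraries, which with a floor of 3 reads allows up to 0.102 to 0.134 CPM (counts per mega-read).

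**Figure D2:**
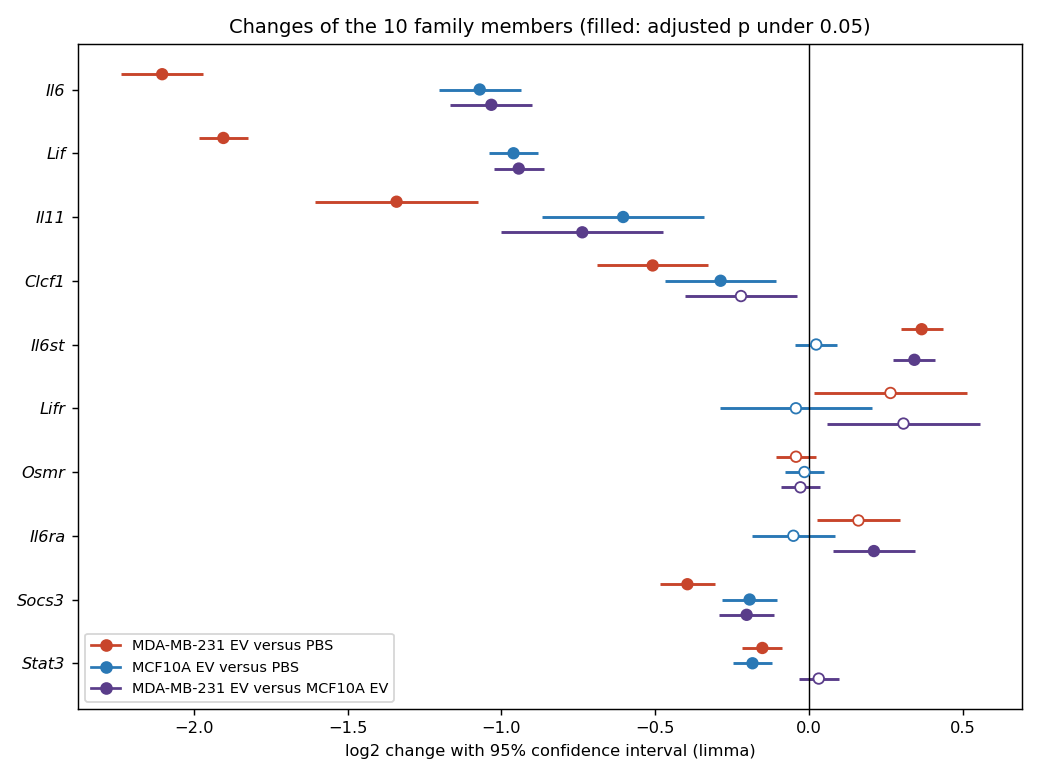
Log2 change of each gene (x axis) with its 95% confidence interval from limma, for the 3 comparisons (colours), with filled points at an adjusted p under 0.05. The ligand genes lie at or left of -0.22 in every comparison, whereas the intervals of Osmr span 0 in all 3.

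Among the receptor genes, Il6st on chromosome 13 encodes the shared signalling chain. It was at 10802 and 10646 normalised reads in the PBS libraries, 10579 and 11233 after EVs of MCF10A and 13589.9 and 14070.5 after those of MDA-MB-231. The MDA-MB-231 EV libraries were above all 4 others, and the PBS and MCF10A EV libraries overlapped. Il6st rose by 28.9% after MDA-MB-231 EVs (log2 change 0.37, SE 0.03, limma adjusted p = 3.55e-07). It was also higher than after MCF10A EVs (log2 difference 0.34, limma adjusted p = 2.85e-06), a call lost in limma without trend (adjusted p = 0.0587). The change after MCF10A EVs was 0.02 (95% confidence interval -0.04 to 0.09, limma adjusted p = 0.637) and turned negative without MCF10A EV replicate 2.

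Il6ra, on chromosome 3, encodes the chain that binds interleukin-6. It stood at 742 and 686 normalised reads in the PBS libraries, 661 and 719 after EVs of MCF10A and 784 and 812 after those of MDA-MB-231. The MDA-MB-231 EV libraries were the highest, and the other groups overlapped. Against PBS the log2 change after MDA-MB-231 EVs was 0.16 (95% confidence interval 0.03 to 0.29, limma adjusted p = 0.0594), called in edgeR (adjusted p = 0.0396), with a filter of 5 CPM (0.0374) and with library totals (0.00994). Without PBS replicate 2 it was 0.10 (limma adjusted p = 0.348). Il6ra was higher after MDA-MB-231 than after MCF10A EVs (log2 difference 0.21, limma adjusted p = 0.0307). That call was lost without MCF10A EV replicate 1 (0.15, limma adjusted p = 0.256) and without MDA-MB-231 EV replicate 1 (0.24, 0.0581) or 2 (0.19, 0.163). DESeq2 and limma without trend did not make it either (adjusted p = 0.149 and 0.191). After MCF10A EVs the change was -0.05 (95% confidence interval -0.18 to 0.08), of either sign when single libraries were left out. An antisense gene shares 242 exon bases with Il6ra, and without the strand setting of the counting their reads cannot be told apart there.

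Lifr and Osmr lie on chromosome 15. Lifr, the leukaemia inhibitory factor receptor gene, had 284 and 311 normalised reads in the PBS libraries, 252 and 331 after EVs of MCF10A and 342 and 374 after those of MDA-MB-231. Its MCF10A EV libraries spanned the PBS range, and both MDA-MB-231 EV libraries were above the rest. The log2 change after MDA-MB-231 EVs was 0.27 against PBS (95% confidence interval 0.02 to 0.51, limma adjusted p = 0.0921) and 0.31 against MCF10A EVs (0.06 to 0.56, limma adjusted p = 0.087). Neither was called by limma. EdgeR called both (adjusted p = 0.0429 and 0.0385), and DESeq2 called neither (adjusted p = 0.222 and 0.235). The second became 0.51 without MCF10A EV replicate 2 and 0.11 without MCF10A EV replicate 1. The first was 0.20 without PBS replicate 1 and 0.33 without PBS replicate 2. The change after MCF10A EVs was -0.04 (95% confidence interval -0.29 to 0.21).

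Osmr, the oncostatin M receptor gene, had 5915 and 5810.0 normalised reads in the PBS libraries, 5863 and 5746 after EVs of MCF10A and 5769 and 5621 after those of MDA-MB-231. All 6 libraries lay close together. Its log2 changes were -0.04 after MDA-MB-231 EVs (95% confidence interval -0.11 to 0.02), -0.01 after MCF10A EVs (-0.08 to 0.05) and -0.03 between the EV groups (-0.09 to 0.04). None was called, and all 3 turned positive with library totals.

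Among 7 other receptor genes, 5 were tested. Il11ra1, an interleukin-11 receptor gene, was at 685 ± 1.82 with PBS, 655 ± 23.0 with vesicles of MCF10A and 769 ± 10.6 with those of MDA-MB-231 (SD, n = 2 each). It rose after MDA-MB-231 EVs (limma adjusted p = 0.0333, with 0 of the list called by DESeq2) and was higher than after MCF10A EVs (limma adjusted p = 0.0102). Its near-identical copy Il11ra2 was at 1393 ± 3.63 with PBS, 1305 ± 34.1 with vesicles of MCF10A and 1499.8 ± 39.1 with those of MDA-MB-231 and was higher after MDA-MB-231 than after MCF10A EVs (limma adjusted p = 0.00462), where DESeq2 called 1 of the list higher. Reads of the 2 copies cannot be assigned with certainty. After MCF10A EVs limma called 0 of the 5, with 1 lower at an unadjusted p under 0.05, and edgeR and DESeq2 called 0. Limma called 34.8% of all genes after MDA-MB-231 EVs, 31.7% after MCF10A EVs and 16.9% between the EV groups.

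**Figure D3:**
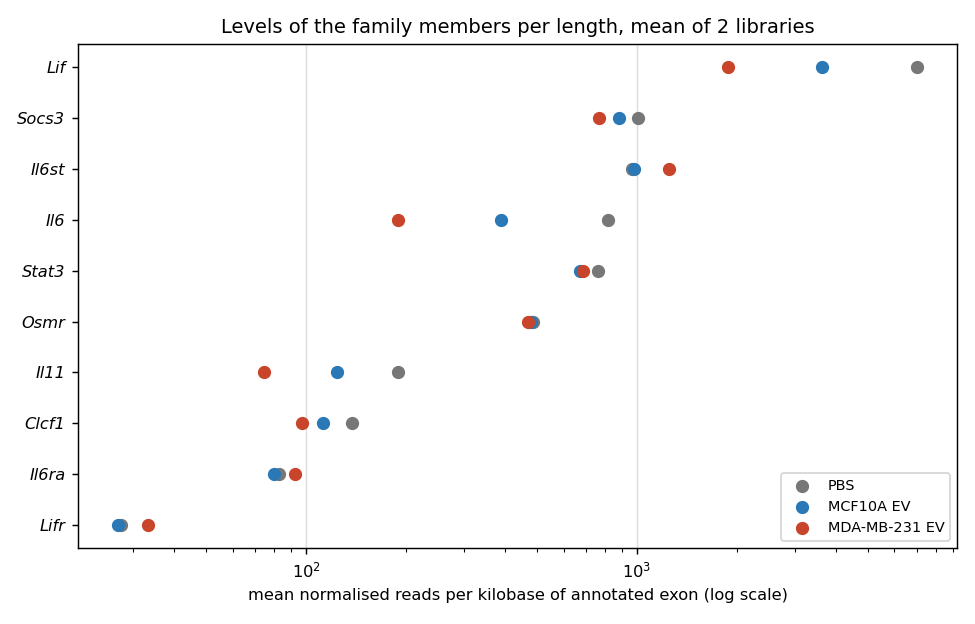
Mean normalised reads per kilobase of annotated exon (x axis, log scale) for the 10 genes, with 1 point per group. Lif is the highest in every group and Lifr the lowest, and Il6 lies between Il6st and Stat3 with PBS and below Osmr after both EVs.

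Levels of different genes can be compared only per length. Per kilobase of annotated exon, normalised reads with PBS were 7042 for Lif, 1009 for Socs3, 966 for Il6st, 818 for Il6, 765 for Stat3, 484 for Osmr, 190 for Il11, 138 for Clcf1, 82.6 for Il6ra and 27.6 for Lifr. After MDA-MB-231 EVs they were 1883 for Lif, 1246 for Il6st, 768 for Socs3, 689 for Stat3, 470.2 for Osmr, 190.1 for Il6, 96.9 for Clcf1, 92.3 for Il6ra, 74.9 for Il11 and 33.2 for Lifr. Il11 went from above Clcf1 and Il6ra to below both. The lengths count the exons of every annotated isoform, so the order of close neighbours such as Socs3 and Il6st with PBS depends on the gene models.

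Of the signalling genes, Socs3 on chromosome 11 encodes the feedback inhibitor of these receptors. It was at 2959 and 2875 normalised reads in the PBS libraries, 2583 and 2522 after EVs of MCF10A and 2311 and 2128 after those of MDA-MB-231. The groups did not overlap and stood in the order of Il6 and Lif. Socs3 fell by 24% after MDA-MB-231 EVs (log2 change -0.40, SE 0.04, limma adjusted p = 2.37e-06), and after MCF10A EVs its log2 change was -0.19 (limma adjusted p = 0.00226, and 0.0959 without trend). It was lower after MDA-MB-231 than after MCF10A EVs (log2 difference -0.20, limma adjusted p = 0.00333). That call was lost without MCF10A EV replicate 1 (-0.19, limma adjusted p = 0.0521) and in limma without trend (0.153).

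Stat3, on chromosome 11, encodes the transcription factor of the pathway. Its level was 7439 and 7141 normalised reads in the PBS libraries, 6501 and 6336 after EVs of MCF10A and 6567 and 6558 after those of MDA-MB-231. Both EV groups were below PBS, and the MDA-MB-231 EV libraries lay just above those after MCF10A EVs. Stat3 fell by 9.96% after MDA-MB-231 EVs (log2 change -0.15, SE 0.03, limma adjusted p = 0.00105), and after MCF10A EVs it fell by 11.9% (log2 change -0.18, SE 0.03, limma adjusted p = 2.80e-04). Limma without trend called neither (adjusted p = 0.0677 and 0.055), and with library totals the first was -0.09. The EV groups differed by 0.03 (95% confidence interval -0.03 to 0.10, limma adjusted p = 0.545). Stat3 and Stat5a share 72 exon bases on opposite strands.

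Of 13 genes for JAK kinases, adaptors and other STATs, 4 rose after MDA-MB-231 EVs, among them Stat2, Stat5a and Stat5b, and 4 fell, Jak1, Tyk2, Grb2 and Stat6, with a median log2 change of 0.009, beside 16.9% lower and 17.9% higher among all genes. After MCF10A EVs 2 rose, among them Ptpn11, and Jak1, Jak3, Tyk2 and Stat6 fell, with a median of -0.075, beside 14.6% lower and 17.1% higher among all genes. DESeq2 called 1 higher and 3 lower in the first comparison and 1 higher and 3 lower in the second. Jak1, a main kinase of these receptors, was at 6307 ± 68.4 with PBS, 5939 ± 76.3 with vesicles of MCF10A and 5852 ± 22.4 with those of MDA-MB-231 (SD, n = 2 each), with log2 changes of -0.11 and -0.09 for MDA-MB-231 and MCF10A EVs. Jak3, Gab1, Stat2, Stat5a and Stat5b were higher after MDA-MB-231 than after MCF10A EVs by limma, where DESeq2 called 1 of the 13 higher. In that comparison 0 were lower by limma, edgeR or DESeq2 or at an unadjusted p under 0.05. Among all genes limma called 6.84% higher and 10.1% lower there.

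Among 15 tested negative regulators of JAK-STAT signalling, 4 were called after MDA-MB-231 EVs and 2 after MCF10A EVs, where 34.8% and 31.7% of all genes were called. Socs5, Pias2 and Ptpn6 rose and Cish fell after MDA-MB-231 EVs, with Ptpn6 near the threshold (limma adjusted p = 0.0498), and DESeq2 called 1 higher and 1 lower. Socs2 and Cish fell after MCF10A EVs, where limma, edgeR and DESeq2 called 0 higher, with 1 higher at an unadjusted p under 0.05. Cish, an inhibitor gene induced by STAT5, was at 335 ± 15.0 with PBS, 254 ± 17.3 with vesicles of MCF10A and 232 ± 3.08 with those of MDA-MB-231 (SD, n = 2 each). Socs1, a close relative of Socs3, was at 252 ± 23.8 with PBS, 243 ± 27.0 with vesicles of MCF10A and 284 ± 17.3 with those of MDA-MB-231 and was not called (limma adjusted p = 0.244 for the last against PBS). Socs2, Socs5 and Pias2 were higher after MDA-MB-231 than after MCF10A EVs by limma, and DESeq2 called 2 higher. Limma, edgeR and DESeq2 called 0 lower in that comparison, with 1 lower at an unadjusted p under 0.05. Among all genes limma called 6.84% higher and 10.1% lower there.

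Of 30 genes described as STAT3-responsive, 19 fell and 5 rose after MDA-MB-231 EVs, with a median log2 change of -0.244, and 16 fell and 6 rose after MCF10A EVs, with a median of -0.274. Among all genes 16.9% fell and 17.9% rose in the first comparison and 14.6% and 17.1% in the second. DESeq2 called 15 of the 30 lower and 4 higher, and 15 lower and 5 higher. The 5 that rose after MDA-MB-231 EVs were Bcl6, Bcl2l1, Ccnd1, Birc5 and Steap4, of which Ccnd1 encodes a cyclin and Birc5 the mitosis and survival factor survivin. Ier3, an immediate early gene, stood in the order of the ligand genes, with 15217 and 15158 normalised reads in the PBS libraries, 10332 and 10076 after EVs of MCF10A and 5849 and 5233 after those of MDA-MB-231. Vegfa, the angiogenic growth factor gene, had 14863 and 14998 normalised reads in the PBS libraries, 6625 and 6587 after EVs of MCF10A and 5638 and 5589.7 after those of MDA-MB-231, and was 2.66-fold lower after MDA-MB-231 EVs and 2.26-fold lower after MCF10A EVs than with PBS. For both genes the 3 groups were separate, with the MDA-MB-231 EV libraries lowest.

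Of the 6 genes of that list with the smallest p, Ier3 and Vegfa were lowest after MDA-MB-231 EVs and the other 4 after MCF10A EVs. Hp, which encodes haptoglobin, had 2501 and 2375 normalised reads in the PBS libraries, 667 and 682 after EVs of MCF10A and 1396 and 1449 after those of MDA-MB-231. The MCF10A EV libraries were its lowest, and it was 2.11-fold higher after MDA-MB-231 than after MCF10A EVs (limma adjusted p = 6.13e-10). Saa3, a serum amyloid A gene, had 21614 and 23099 normalised reads in the PBS libraries, 8575 and 8738 after EVs of MCF10A and 10929 and 10966 after those of MDA-MB-231, and was 1.26-fold higher in the same comparison (limma adjusted p = 2.85e-06). Lcn2, which encodes the iron-sequestering protein lipocalin, was at 1194 ± 49.9 with PBS, 339 ± 3.76 with vesicles of MCF10A and 457 ± 44.8 with those of MDA-MB-231 (SD, n = 2 each; limma adjusted p = 8.45e-04 between the EV groups). Cebpd, a transcription factor gene of the acute phase response, was at 7882 ± 194 with PBS, 6006 ± 23.7 with vesicles of MCF10A and 6808 ± 9.80 with those of MDA-MB-231 (limma adjusted p = 4.85e-04). Lrg1, a scarce acute phase gene of the same list, was at 13.9 ± 4.19 with PBS, 6.05 ± 2.39 with vesicles of MCF10A and 5.23 ± 3.06 with those of MDA-MB-231, and its EV groups did not differ beyond their spread (limma adjusted p = 0.801). In all, 6 of the 30 were higher and 8 lower after MDA-MB-231 than after MCF10A EVs, with a median of 0.004. Among all genes 6.84% were higher and 10.1% lower in that comparison.

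**Figure D4:**
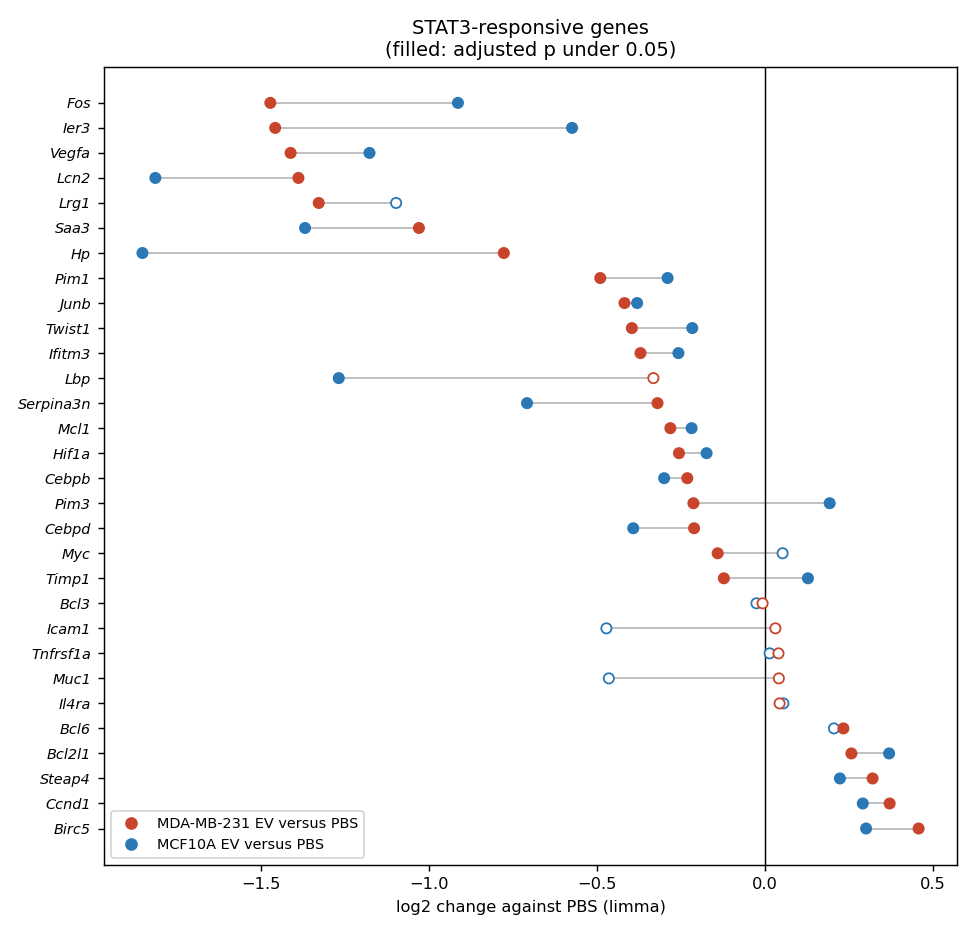
Log2 change against PBS (x axis) of the 30 STAT3-responsive genes after MDA-MB-231 EVs and after MCF10A EVs, joined by a line for each gene, with filled points at an adjusted p under 0.05. Ier3 lies further left after MDA-MB-231 EVs, and Hp, Lcn2 and Saa3 further left after MCF10A EVs.

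Of 26 regulators of Il6 transcription and mRNA stability, 17 fell and 6 rose after MDA-MB-231 EVs, with a median log2 change of -0.24, and 11 fell and 3 rose after MCF10A EVs, with a median of -0.102. The shares of all genes were 16.9% lower and 17.9% higher, and 14.6% lower and 17.1% higher. DESeq2 called 17 lower and 3 higher, and 8 lower and 1 higher. Nfkbiz, which encodes a nuclear cofactor of NF-kB that promotes Il6 transcription, had 7711 and 7967 normalised reads in the PBS libraries, 5515 and 5376 after EVs of MCF10A and 4449 and 4372 after those of MDA-MB-231. Its 3 groups were separate and in the order of Il6, with a log2 difference of -0.30 between the EV groups (limma adjusted p = 6.44e-06). The AP-1 gene Fosl1 was at 11484 ± 346 with PBS, 9391 ± 106 with vesicles of MCF10A and 6770.4 ± 443 with those of MDA-MB-231 (SD, n = 2 each), with all 3 differences called. Jun, which encodes another AP-1 subunit, was at 5142 ± 174 with PBS, 4109.8 ± 79.8 with vesicles of MCF10A and 3961 ± 158 with those of MDA-MB-231 and fell after both EVs. Fos, counted in the STAT3-responsive list, was at 212 ± 3.73 with PBS, 112 ± 0.687 with vesicles of MCF10A and 76.0 ± 2.54 with those of MDA-MB-231 and also fell after both. Egr1, an immediate early factor gene, was 2.29-fold lower after MDA-MB-231 EVs and 2.06-fold lower after MCF10A EVs than with PBS.

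Of the NF-kB subunit genes, Rela was at 2650.0 ± 91.5 with PBS, 2599 ± 14.0 with vesicles of MCF10A and 2485 ± 90.6 with those of MDA-MB-231 and was not called (limma adjusted p = 0.0784 after MDA-MB-231 EVs), and Nfkb1 fell after both EVs (log2 changes -0.18 and -0.23). Rel also fell after both (-0.38 and -0.26). Nfkb2 and Relb fell after MDA-MB-231 EVs (-0.19 and -0.26) and were not called after MCF10A EVs (0.01 and -0.15). Tnfaip3, which encodes an NF-kB-induced inhibitor, was at 586 ± 11.8 with PBS, 589 ± 28.6 with vesicles of MCF10A and 404 ± 6.03 with those of MDA-MB-231 and was lower after MDA-MB-231 than after MCF10A EVs (log2 difference -0.54, limma adjusted p = 4.67e-05). Atf4, a stress response factor gene, was at 7860.1 ± 77.0 with PBS, 7784 ± 199 with vesicles of MCF10A and 5991 ± 114 with those of MDA-MB-231 and likewise differed between the EV groups (log2 difference -0.38, limma adjusted p = 5.12e-07). Arid5a, whose product stabilises Il6 mRNA, was at 165 ± 3.29 with PBS, 124 ± 18.5 with vesicles of MCF10A and 94.1 ± 3.36 with those of MDA-MB-231 and fell after both EVs. Genes of proteins that promote mRNA decay moved both ways. Zc3h12a, which encodes a nuclease of Il6 mRNA, fell (log2 changes -0.25 and -0.15), and so did Zfp36l1 (-0.33 and -0.25). Zfp36l2, of the same family, rose and was at 4439.9 ± 57.2 with PBS, 4767 ± 77.5 with vesicles of MCF10A and 5867 ± 79.0 with those of MDA-MB-231. The 3 that rose after MCF10A EVs were Irf1, Zfp36l2 and Hmga2. Of the 26 regulators, 9 were lower and 4 higher after MDA-MB-231 than after MCF10A EVs, beside 10.1% and 6.84% of all genes. The 4 were Creb1, Irf1, Zfp36l2 and Rc3h1. The part of these genes in the change of Il6 was not tested.

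**Figure D5:**
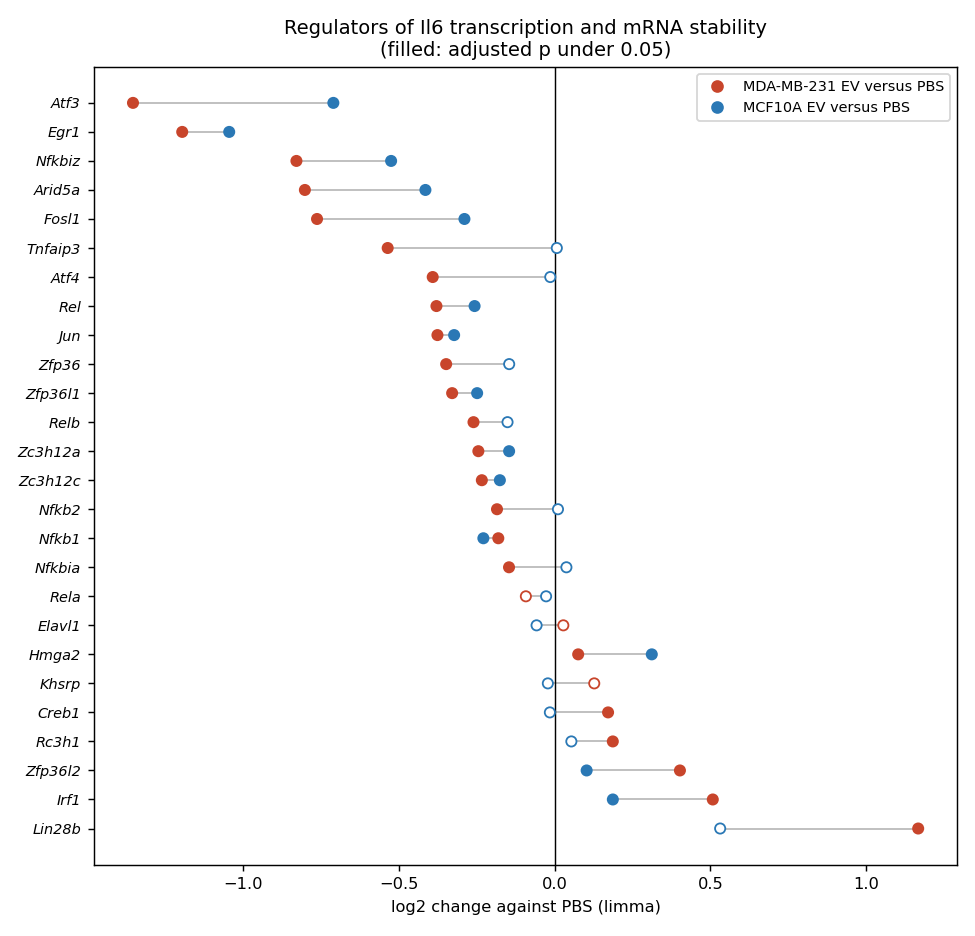
Log2 change against PBS (x axis) of 26 regulators of Il6 transcription and mRNA stability after each kind of EV, with filled points at an adjusted p under 0.05. Atf3, Egr1, Nfkbiz and Arid5a have the lowest values after MDA-MB-231 EVs, and Zfp36l2 and Irf1 lie right of 0 after both EVs.

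Likeness of pattern over the 6 libraries was measured as the root mean square difference of log2 values, each gene centred on its own mean. For each member it was taken over 9829 other genes whose mean was 5 CPM or more. Predicted genes (Gm and digits) and symbols ending in Rik were left out. For Il6 the nearest gene was Lif, at 0.0897, followed by the collagenase gene Mmp13 at 0.0913 and Gpr35 at 0.102. For Lif they were Rnf125 at 0.0619, Pla1a at 0.067 and Il6. Mmp13 had 1714 and 1653 normalised reads in the PBS libraries, 745 and 699 after EVs of MCF10A and 399 and 330.2 after those of MDA-MB-231. Like Il6, it was lowest after MDA-MB-231 EVs, with MCF10A EV libraries in between. Il11 was nearest to Capn9, Prr5l and Ramp3, at 0.072 to 0.0995, and Socs3 to Itfg3, Cdk2ap2 and Ppp1r10, at 0.0129 to 0.0196. Il6st was nearest to Snn, Cacnb1 and Fmr1, at 0.0267 to 0.0371. The nearest genes were Agpat9 for Clcf1, Dzip1 for Il6ra, Sclt1 for Lifr, Prdx2 for Osmr and Rnf2 for Stat3. These distances describe 6 libraries and were not tested.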

How the data were processed

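The data were RNA-seq values of 6 NIH3T3 libraries, made with a stranded mRNA protocol per the labels. The submitters' processing notes name TopHat2, edgeR and the human build hg19, whereas the rows are mouse genes, so genes are located by chromosome only. Not given in the sources used here were the mouse build, the read counter, the annotation and the counted strand. The authors deposited a normalised signal per gene, in reads that are not whole. The deposited values matched edgeR pseudo-counts, in which reads are brought to 1 library size by group. Inverting that step with fitted library sizes and a common dispersion of 0.000591 gave whole reads for 100.0% of 122850 values within a relative 1e-06.

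limma 3.58.1 (R 4.3.3, eBayes with trend, 3 residual and 11.5 prior degrees of freedom) was fitted to log2(value + 1) of all 6 libraries, a mean per group, over 15025 genes that reached 1 normalised read in 2 or more libraries. P-values were adjusted by Benjamini-Hochberg over all of them. Fold changes are on this scale and understate those of low genes. The 15 alternatives were another pseudocount, 2 other filters, no trend, library totals, quantile scaling, a replicate block, leaving out each of 6 libraries, and edgeR 4.0.16 (quasi-likelihood, TMM) and DESeq2 1.42.0 on the whole reads. On simulated data for MDA-MB-231 EVs against PBS, limma called 44, 49, 50 and 50 of 50 genes changed 1.25-, 1.5-, 2- and 4-fold, with 4 false calls among 14820. The changed genes all had a mean of 5 CPM or more, and the simulated spread was that of these 6 libraries. These figures therefore do not cover scarcer changed genes or a spread between separate cultures. Far fewer genes were changed than the 5231 called in the data. Exon lengths came from GENCODE M21 and promoters from RefSeq (GRCm38.p6).

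The members, lists and tests were chosen with earlier results of these data known. All members are named. From each list up to 6 called genes with the smallest p were named, with any gene of a count of 5 or fewer and, for likeness, the 3 nearest genes. Ctf1, Cntf, Osm, Lep, Il31, Socs1, Jun, Fos, Rela, Rel, Relb, Nfkb1, Nfkb2, Lrg1, Cdh1, Tnfaip3, Atf3, Arid5a and Zc3h12a fall outside that rule and were chosen after their values were seen. A few list genes enter the counts and are not reported here individually. Floors cover counting error only.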

Additional observations from a re-analysis of the deposited data

How the results depend on the processing

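Il6 and Lif kept their direction and their calls in all 3 comparisons under all 15 alternative settings, with log2 changes of -2.17 to -2.04 and -1.98 to -1.81 for MDA-MB-231 EVs against PBS. Il11, Clcf1, Il6st and Socs3 did so for MDA-MB-231 EVs against PBS. Without trend limma called 3346 genes after MDA-MB-231 EVs, 2231 after MCF10A EVs and 378 between the EV groups, in place of 5231, 4764 and 2541. It lost Stat3 in the first (-0.15), Il11 (-0.60), Clcf1 (-0.29), Socs3 (-0.19) and Stat3 (-0.18) in the second, and Il11 (-0.74), Il6st (0.34), Il6ra (0.21) and Socs3 (-0.20) in the third. DESeq2 called 1515 genes in the third and lost Clcf1 in the second (-0.30) and Il6ra in the third (0.22). The cause was not tested.

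Calls were gained after MDA-MB-231 EVs against PBS by Lifr with a filter of 5 CPM (0.27), library totals (0.33) and edgeR (0.26), and by Il6ra with the same 3 settings (0.16, 0.23 and 0.16). In the third comparison they were gained by Clcf1 (-0.22) and Lifr (0.31) with a filter of 5 CPM, where fewer genes are tested, and by Lifr with edgeR (0.29). Osmr turned with library totals to 0.0241, 0.0089 and 0.0152 in the 3 comparisons and with quantile scaling to 0.0157 in the third. Library totals put the median of all genes at 0.072, 0.023 and 0.04.

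Leaving out 1 library at a time gave 1425 (without MCF10A EV replicate 1) to 2257 genes between the EV groups, with 1668 without MCF10A EV replicate 2 and 1646 without MDA-MB-231 EV replicate 2. The log2 change of Lifr after MDA-MB-231 EVs ranged from 0.20 to 0.33. After MCF10A EVs the ranges were -0.36 to -0.21 for Clcf1, -0.0196 to 0.0669 for Il6st, -0.2402 to 0.1558 for Lifr (0.0244 without PBS replicate 2), -0.0289 to 0.0001 for Osmr and -0.111 to 0.0103 for Il6ra (0.006 without PBS replicate 1). Between the EV groups they were -0.32 to -0.12 for Clcf1, 0.11 to 0.51 for Lifr, 0.15 to 0.27 for Il6ra and -0.26 to -0.14 for Socs3. A group left with 1 library was assumed to vary like the others.

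Replicate numbers are shared between groups in the labels. Deviations of same-numbered libraries correlated at -0.014, 0.016 and 0.029 over 9830 genes, so no deviation common to these genes was seen. A correlation over many genes cannot decide whether same-numbered libraries were handled together. With the replicate block 5187, 4746 and 2560 genes were called, and of the members Lifr gained calls, at 0.27 against PBS (limma adjusted p = 0.0441) and 0.31 between the EV groups (adjusted p = 0.0396). With 129 to 400 whole reads per library, Il11 had the widest intervals of the ligand genes.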
